A study of Homo sapiens with 18 samples.

Results

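The aryl hydrocarbon receptor and the genes that report its activity were followed in 3 cell lines of bladder cancer. The 6 genes, chosen by name, were AHR, its partner ARNT, the repressor AHRR, the ADP-ribosyltransferase TIPARP and the cytochrome P450 genes CYP1A1 and CYP1B1. All 6 were among the 16575 genes of the deposited table, and 5 of them were among the 13022 genes that reached 5 CPM in at least 1 library. AHRR did not reach that level, with a highest value of 3.54 CPM.

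The study asked how the tumor suppressor WWOX modulates what the transcription factors AP-2α and AP-2γ do in this tumor. CAL-29, HT-1376 and RT-112 are established lines of human urinary bladder carcinoma, and each was transduced with lentivirus in 2 rounds, the first with WWOX or a blank control and the second with AP-2α, AP-2γ or a blank control. The resulting 6 variants were KK (both controls), KA (control, then AP-2α), KC (control, then AP-2γ), WK (WWOX, then control), WA (WWOX, then AP-2α) and WC (WWOX, then AP-2γ). There was 1 CAGE-seq library for each variant of each line, 18 in all, and the lines served as the replicates of a variant. Every variant, controls included, had been through both rounds and through selection with puromycin and G418, and the transgenes were carried by vectors with a CMV promoter. RT-112 was grown in RPMI-1640, HT-1376 and CAL-29 in DMEM, so that medium and line cannot be told apart where RT-112 is compared with the others.

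CAGE sequences the capped 5′ ends of transcripts, so a value in CPM, the share of a library's counted reads scaled to a common total, stands for transcript starts assigned to a gene. AHR is a ligand-activated transcription factor of the bHLH-PAS family. Without ligand it is held in the cytoplasm with HSP90 and co-chaperones, and when bound by dioxins, polycyclic aromatic hydrocarbons or tryptophan metabolites it enters the nucleus, pairs with ARNT and binds xenobiotic response elements near its target genes. CYP1A1 and CYP1B1 then metabolise such ligands, while AHRR and TIPARP are induced by the receptor and restrain it, and in the urothelium, which meets excreted carcinogens, the pathway is known for the metabolism of aromatic compounds.

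The core of the xenobiotic response element is GCGTG, read on either strand (CACGC on the other), and these letters are also found in hypoxia response elements, which ARNT binds with other partners. The 250 bases before the RefSeq start site (GRCh38.p14) are shown for the receptor and for 3 targets, with every copy of the core in capitals. Sequence farther from the start was not searched. For AHRR and TIPARP, which have 2 and 3 start sites in RefSeq, the first is shown. AHR lies on the plus strand (chr7:17298402-17298651), AHRR on the plus strand (chr5:321464-321713), TIPARP on the plus strand (chr3:156674340-156674589) and CYP1A1 on the minus strand (chr15:74725529-74725778).
AHR: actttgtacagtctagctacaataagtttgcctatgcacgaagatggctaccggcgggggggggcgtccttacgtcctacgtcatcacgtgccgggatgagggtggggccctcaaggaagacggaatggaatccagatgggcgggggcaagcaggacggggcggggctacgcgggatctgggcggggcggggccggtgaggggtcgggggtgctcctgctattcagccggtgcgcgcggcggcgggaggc
AHRR: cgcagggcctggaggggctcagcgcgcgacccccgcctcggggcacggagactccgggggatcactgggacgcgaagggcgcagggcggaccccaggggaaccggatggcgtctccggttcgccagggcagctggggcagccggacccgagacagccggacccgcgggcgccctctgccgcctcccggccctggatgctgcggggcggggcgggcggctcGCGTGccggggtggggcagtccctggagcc
TIPARP: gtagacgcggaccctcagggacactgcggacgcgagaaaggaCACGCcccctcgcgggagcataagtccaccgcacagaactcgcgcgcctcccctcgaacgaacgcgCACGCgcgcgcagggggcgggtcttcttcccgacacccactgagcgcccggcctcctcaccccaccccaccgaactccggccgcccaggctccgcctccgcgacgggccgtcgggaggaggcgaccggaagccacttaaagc
CYP1A1: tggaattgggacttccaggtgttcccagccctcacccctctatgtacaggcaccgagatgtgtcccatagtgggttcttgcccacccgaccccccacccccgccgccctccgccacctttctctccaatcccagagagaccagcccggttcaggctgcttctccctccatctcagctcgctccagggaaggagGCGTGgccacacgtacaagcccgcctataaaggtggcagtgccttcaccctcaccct

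CYP1A1 and AHRR had 1 copy each in this window, whose first base lay 57 and 30 bases before the start, and TIPARP had 2 copies, at 208 and 142 bases before it. The second AHRR window held 2 copies, and the other 2 TIPARP windows held 0. AHR had 0 copies, as had ARNT (minus strand, chr1:150876600-150876849, not shown). The core was found in 32.2% of the 35116 RefSeq windows of this length, and 2 or more copies in 10.2%. A promoter sequence was matched for 5 of the 6 genes, the exception being CYP1B1. The positions of the CAGE clusters were not used here, so which start site the values stand for is not known.

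In GENCODE 44 (GRCh38) AHR spans chromosome 7 from 16916359 to 17346152 and ARNT chromosome 1 from 150809713 to 150876708. AHRR spans chromosome 5 from 321714 to 438291, TIPARP chromosome 3 from 156673235 to 156706770, CYP1A1 chromosome 15 from 74719542 to 74725536 and CYP1B1 chromosome 2 from 38066973 to 38109902. TIPARP and CYP1B1 overlap antisense genes that are also in the table (TIPARP-AS1 and CYP1B1-AS1, and CYP1B1 also RMDN2). Whether strand was used to assign tags to genes is not given in the sources used here.

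The libraries held 13357102 to 17958572 reads on genes, recovered from the deposited CPM, so that 1 read was worth 0.0526 to 0.0709 CPM. The library labelled CAL-29 KC stood apart from its line. Of 68 genes that marked the CAL-29 control, 7 reached 10% of that level there, as did 46 of 47 genes that marked the HT-1376 control, and its median correlation over genes was 0.940 with HT-1376 and 0.741 with CAL-29 libraries. It is therefore given apart below, and 17 libraries entered all fits other than those against KK. The transcript of TFAP2C was higher in 5 of 5 pairs of libraries with and without the AP-2γ virus, that of TFAP2A in 5 of 6 pairs for AP-2α, but that of WWOX in 3 of 8 pairs (0.713-fold to 2.43-fold). Transcripts that start in a vector need not be assigned to the native gene, so these values check the labels only in part, and directions for WWOX below are those of libraries labelled WWOX. All 14 epithelial and urothelial markers on the list were in the table, but FOXA1, KRT13 and UPK2 had medians of 0.085, 0.385 and 0.38 CPM in HT-1376, and the median of UPK3A was 0 there and in RT-112. Of 11 markers of leukocytes, endothelium and fibroblasts, 4 were in the table, and their summed level was 8.02 to 65.6 CPM against 4982 to 26700 CPM for the epithelial markers.

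AHR, the receptor itself, was present in every library and its level was lowest in RT-112 and highest in CAL-29. The RT-112 libraries KK, KA, KC, WK, WA and WC had 11.6, 12.4, 16.7, 8.71, 14.6 and 13.8 CPM of AHR. The same variants of HT-1376 had 26.9, 40.2, 69.7, 42.0, 62.2 and 45.1 CPM. The CAL-29 libraries KK, KA, WK, WA and WC had 251, 63.5, 146, 259 and 59.6 CPM, and the library labelled CAL-29 KC had 189 CPM. The 3 lines did not overlap outside the latter library except at the edge between HT-1376 (highest 69.7 CPM) and CAL-29 (lowest 59.6 CPM), and the CAL-29 libraries spread widest, over 4.34-fold.

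In limma on log2(CPM + 0.5), with the variant as a term, AHR of HT-1376 exceeded that of RT-112 by 1.80 ± 0.31 (SE) on the log2 scale, with an adjusted p of 0.000219. CAL-29 exceeded RT-112 by 3.39 ± 0.34 and HT-1376 by 1.59 ± 0.34, with adjusted p of 1.33e-06 and 0.00115. All 3 differences passed in each of 15 settings. Differences between lines were common, since 61.9% of genes were called between HT-1376 and RT-112, 71.5% between CAL-29 and RT-112 and 61% between CAL-29 and HT-1376. Libraries of a line come from 1 parent culture, so that these p-values measure the spread between transduced variants.

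The deposited CPM also set most genes higher in CAL-29. The median difference over all genes was 0.43, 0.84 and 0.47 for the 3 pairs in that order, and after TMM scaling, which equalises the bulk of genes, it was 0.09, 0.15 and 0.10. The called genes split into 5557 higher and 2498 lower, 7320 and 1994, and 5646 and 2298 as deposited, and into 4028 and 3652, 4938 and 4088, and 3940 and 3479 after TMM. AHR was higher by 1.44, 2.65 and 1.20 after TMM, so its order of lines was kept on either scale.

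**Figure D1:**
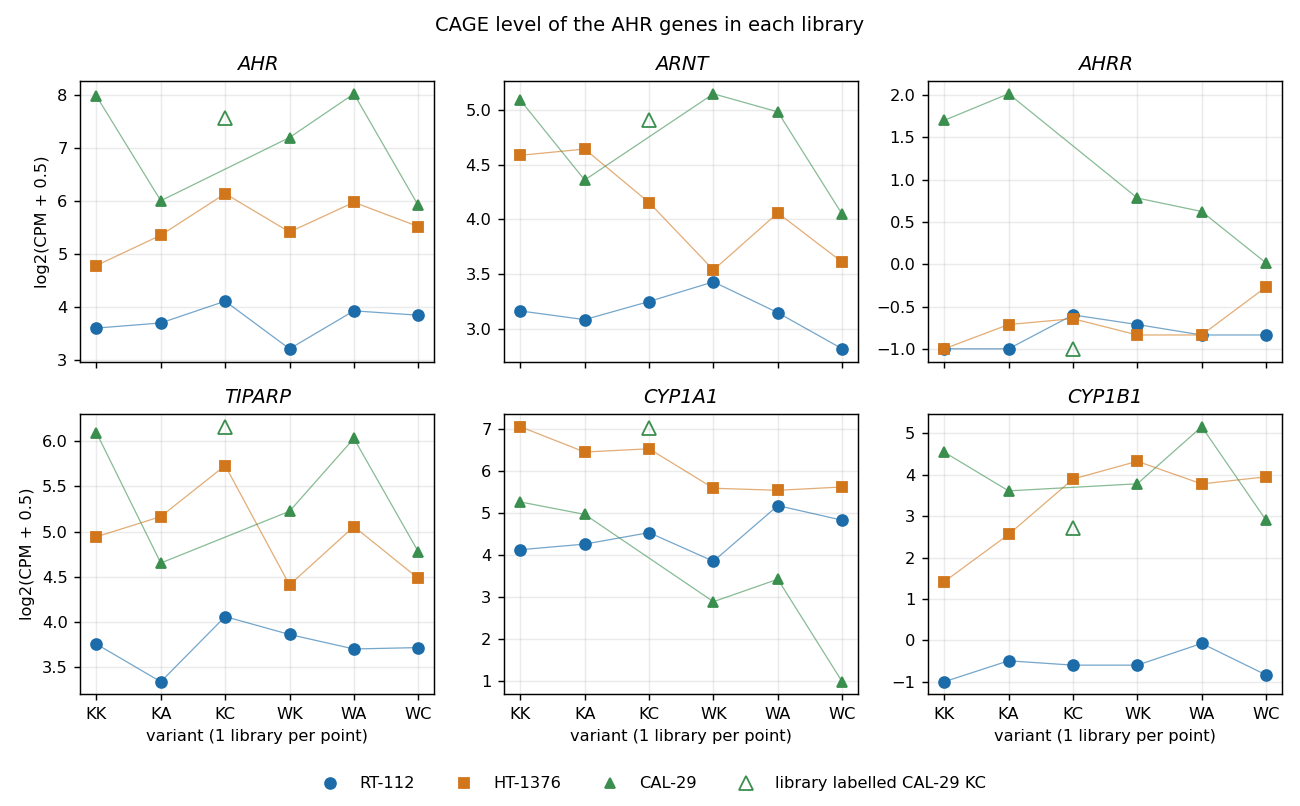
Level of each gene as log2(CPM + 0.5) in every library, by variant (x axis) and cell line (colour and marker), 1 library per point, with the library labelled CAL-29 KC as an open triangle. AHR and CYP1B1 are lowest in RT-112, AHRR is above 0.5 CPM only in CAL-29, and CYP1A1 is highest in HT-1376 except in the open triangle.

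ARNT, the obligate partner of AHR and of hypoxia-inducible factors, varied least within each line of the genes past the filter. Over KK, KA, KC, WK, WA and WC its values were 8.48, 8.0, 9.03, 10.3, 8.38 and 6.57 CPM for RT-112 and 23.5, 24.5, 17.3, 11.1, 16.2 and 11.7 CPM for HT-1376. For KK, KA, WK, WA and WC of CAL-29 they were 33.5, 20.02, 34.9, 31.0 and 16.0 CPM, with 29.5 CPM in the library labelled CAL-29 KC. RT-112 lay below all other libraries, while HT-1376 and CAL-29 overlapped. The difference from RT-112 was 0.95 ± 0.22 for HT-1376 and 1.59 ± 0.23 for CAL-29 (SE, limma, adjusted p of 0.00174 and 3.77e-05). ARNT was higher in CAL-29 than in HT-1376 by 0.64 (adjusted p of 0.0273), a difference close to the median of all genes that fell to 0.26 after TMM scaling and was not called there (adjusted p of 0.268).

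AHRR, which competes with AHR for ARNT and represses AHR targets, was near the detection limit in RT-112 and HT-1376. The RT-112 libraries KK, KA, KC, WK, WA and WC had 0, 0, 0.16, 0.11, 0.06 and 0.06 CPM of AHRR, and those of HT-1376 had 0, 0.11, 0.14, 0.06, 0.06 and 0.33 CPM. Of these 12 libraries 11 had 3 reads or fewer, and 3 reads, taken here as the floor, are worth 0.158 to 0.213 CPM. The CAL-29 libraries KK, KA, WK, WA and WC had 2.75, 3.54, 1.22, 1.04 and 0.51 CPM. Every one of these 5 libraries, with 9 to 64 reads, was above all RT-112 and HT-1376 libraries. The library labelled CAL-29 KC had 0 reads of AHRR, like the HT-1376 control. Fitted without the filter on low values, AHRR was higher in CAL-29 than in RT-112 by 1.89 ± 0.29 and than in HT-1376 by 1.77 ± 0.29 (SE, limma, adjusted p of 7.7e-05 and 0.000196), and the pseudocount makes these differences of a low gene too small.

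TIPARP, which ADP-ribosylates AHR and limits its activity, followed AHR in being lowest in RT-112. Libraries of RT-112, in the order KK, KA, KC, WK, WA and WC, had 13.0, 9.63, 16.2, 14.1, 12.5 and 12.7 CPM, and libraries of HT-1376 had 30.3, 35.4, 52.6, 20.8, 32.8 and 21.9 CPM. Libraries KK, KA, WK, WA and WC of CAL-29 had 67.8, 24.7, 36.9, 64.9 and 26.9 CPM, and the library labelled CAL-29 KC had 71 CPM. RT-112 did not overlap with the other lines, which overlapped with each other. TIPARP was higher by 1.22 ± 0.23 in HT-1376 and 1.72 ± 0.24 in CAL-29 than in RT-112 (SE, limma, adjusted p of 0.000369 and 2.87e-05). The difference of CAL-29 from HT-1376, 0.50 with a 95% interval from -0.02 to 1.02, was not called (adjusted p of 0.0888).

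CYP1A1, the most widely used readout of AHR activity, did not follow the order of the receptor. Its RT-112 values over KK, KA, KC, WK, WA and WC were 16.8, 18.5, 22.5, 13.8, 35.4 and 27.7 CPM. HT-1376 had the highest level, with 132, 86.5 and 91.3 CPM in KK, KA and KC and 47.4, 45.8 and 48.4 CPM in WK, WA and WC. CAL-29 had 37.7 and 30.6 CPM without WWOX (KK and KA), but 6.85, 10.2 and 1.46 CPM with it (WK, WA and WC). The library labelled CAL-29 KC had 129 CPM, above every CAL-29 library and within the range of HT-1376. Its CYP1B1 value also lay within the range of HT-1376 and below every CAL-29 library. Its AHR and ARNT values lay above every HT-1376 library and within the range of CAL-29, and its TIPARP value lay above both lines.

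On the log2 scale CYP1A1 differed by 1.67 ± 0.48 between HT-1376 and RT-112 and by -2.58 ± 0.52 between CAL-29 and HT-1376 (SE, limma, adjusted p of 0.00815 and 0.000782). The difference of CAL-29 from RT-112 was -0.91 (95% interval from -2.02 to 0.20, adjusted p of 0.127) as deposited, and -1.64 after TMM scaling, where it was called (adjusted p of 0.00873). The order of the lines is given separately for libraries with and without WWOX. Among libraries without WWOX, RT-112 was lowest in CYP1A1 with 16.8 to 22.5 CPM, CAL-29 followed with 30.6 to 37.7 and HT-1376 was highest with 86.5 to 132, with no overlap. Among libraries labelled WWOX, CAL-29 was lowest with 1.46 to 10.2 CPM, RT-112 was in the middle with 13.8 to 35.4 and HT-1376 was highest with 45.8 to 48.4, again with no overlap.

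CYP1B1, the extrahepatic family member, was close to absent in RT-112. That line had 0, 0.21, 0.16, 0.16, 0.45 and 0.06 CPM over KK, KA, KC, WK, WA and WC. The HT-1376 libraries KK and KA had 2.17 and 5.39 CPM, and KC, WK, WA and WC had 14.4, 19.6, 13.2 and 15.0 CPM. For KK, KA, WK, WA and WC of CAL-29 the values were 22.9, 11.7, 13.3, 35.3 and 6.97 CPM, and the library labelled CAL-29 KC had 6.02 CPM. The HT-1376 control was thus the lowest of its line by a wide margin, whereas the CAL-29 control was second of 5. CYP1B1 was higher by 3.92 ± 0.42 in HT-1376 and 4.66 ± 0.45 in CAL-29 than in RT-112 (SE, limma, adjusted p of 2.86e-06 and 1.12e-06). HT-1376 and CAL-29 differed by 0.74 (95% interval from -0.23 to 1.71, adjusted p of 0.17), which was not called.

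**Figure D2:**
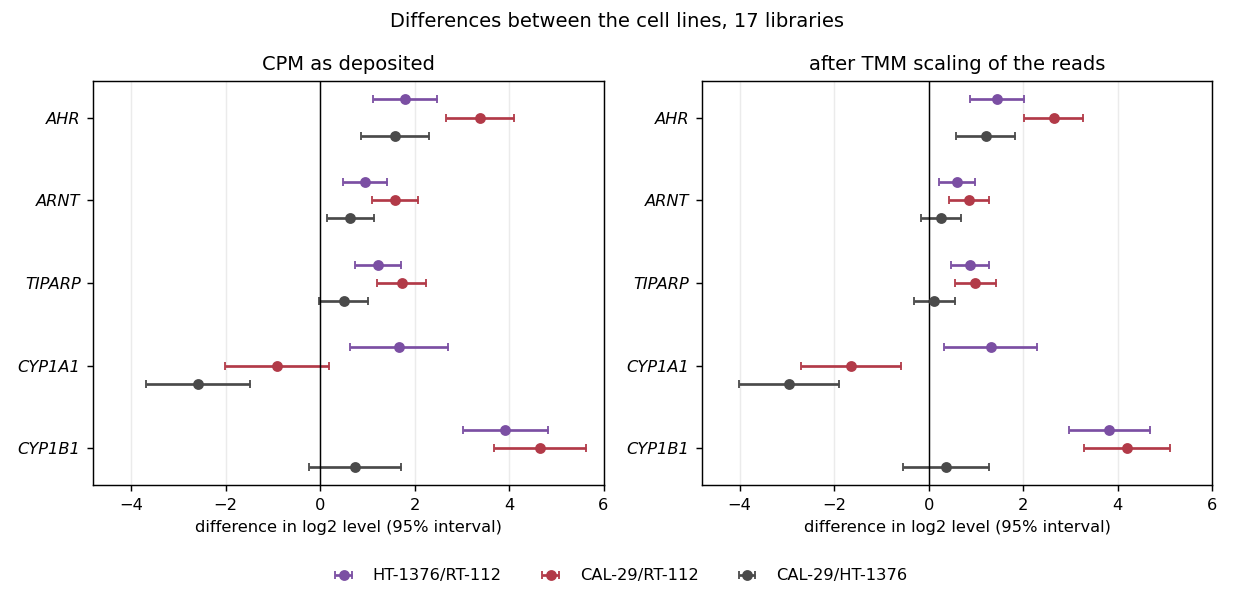
Differences between cell lines in log2 level with 95% intervals from limma over 17 libraries (x axis) for the 5 genes past the filter (y axis), with the deposited CPM on the left and after TMM scaling on the right. AHR is higher in the first-named line of all 3 pairs on both scales, while CYP1A1 lies below 0 for CAL-29 against HT-1376 (-2.58 as deposited, -2.95 after TMM).

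Against the control KK none of the 5 genes past the filter passed the test. In the comparison of each variant with KK over all 18 libraries, with the lines as replicates, limma called 0 of 13022 genes (0% for each of the 5 variants). Unadjusted p-values under 0.05 were found for 7, 11, 38, 37 and 84 genes (KA, KC, WK, WA, WC), and DESeq2 called 1, 5, 3, 3 and 9 genes in that order, none of them among these 5. The spread between lines set the errors here, as seen for AHR, for which the KK libraries alone ran from 11.6 to 251 CPM. In simulated data this fit recovered only 12% of 4-fold changes, against 98% with the line as block, so most such changes would be missed. With the line as block, limma also called 0 genes for each variant.

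CYP1A1 had the largest mean differences of the 5 genes in WK/KK and WC/KK. It was lower in WK than in KK in 3 of 3 lines, with a mean of -1.37 ± 1.15 (SE) on the log2 scale, and in WC in 2 of 3 lines, with a mean of -1.67 ± 1.15 (limma, adjusted p of 0.9999 and 0.9998). The WC value rested on CAL-29, since without that line it was -0.37, and the WK value was then -0.87. TIPARP was lower in WC than in KK in 3 of 3 lines, as was ARNT, with means of -0.61 ± 0.74 and -0.79 ± 0.68. The median WC/KK difference over all genes was -0.25 as deposited and -0.02 after TMM scaling, so a general shift is part of these means. For TIPARP in RT-112 the change was only from 13.02 to 12.66 CPM. AHR was higher in WA in 3 of 3 lines (mean 0.52 ± 1.31), as was CYP1B1 (mean 1.30 ± 1.88). In CAL-29 AHR rose only from 251 to 259 CPM, within counting error, and CYP1B1 in RT-112 went from 0 to 8 reads, near the floor. The share of all genes with the same direction in 3 of 3 lines was not counted. None of these differences passed the test, which measures them against the spread between lines.

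**Figure D3:**
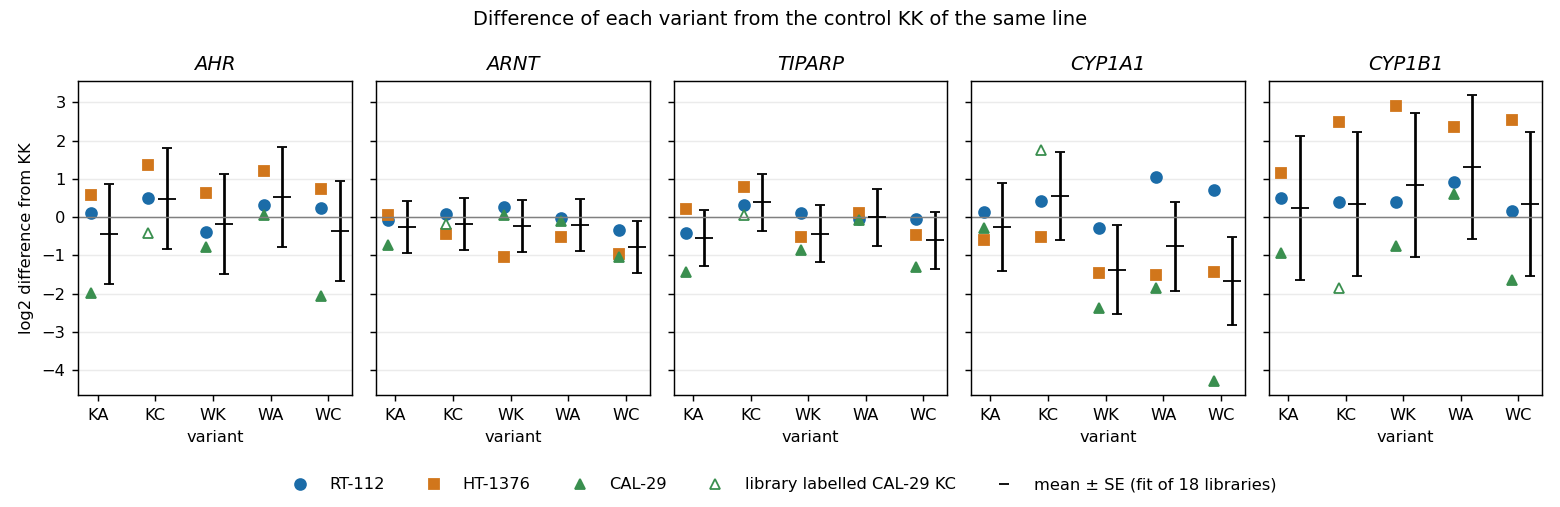
Difference of each variant from KK of the same line in log2(CPM + 0.5) (y axis) for each line (points) and the mean with its SE from limma over 18 libraries (black bars), by variant (x axis). The WK points of CYP1A1 all lie below 0, and the error bars come from the spread between lines.

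Within cell lines the comparison is narrower. With the line, WWOX and the second virus as terms in 17 libraries, CYP1A1 was lower in libraries labelled WWOX by a mean of -0.998 ± 0.39 (SE) on the log2 scale (95% interval from -1.84 to -0.16), which did not pass in limma (adjusted p of 0.357). This fit called 0% of genes for WWOX, AP-2α and AP-2γ, with 1598, 199 and 343 genes at an unadjusted p under 0.05, and edgeR's quasi-likelihood test on the recovered reads called 16, 1 and 2 genes, none of them among these 5. For WWOX the other estimates were 0.04 for AHR, -0.24 for ARNT, -0.22 for TIPARP and 0.54 for CYP1B1, each with an interval that included 0. For AP-2α the 5 estimates were between -0.11 (ARNT) and 0.34 (CYP1B1), and for AP-2γ between -0.43 (CYP1A1) and 0.07 (CYP1B1), and none passed. Without CAL-29 the WWOX estimate for CYP1A1 was -0.39, and without RT-112 it was -1.67.

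The 3 lines were also compared for their WWOX difference. In RT-112, CYP1A1 was at 25.7 ± 11.0 CPM with WWOX and 19.3 ± 2.91 without (SD, n = 3 each), and the values overlapped. In HT-1376 it was at 47.2 ± 1.32 CPM with WWOX and 103 ± 24.8 without (SD, n = 3 each), 0.457-fold, and the lowest library without WWOX (86.5 CPM) was above the highest with it (48.4 CPM). In CAL-29 it was at 6.15 ± 4.39 CPM with WWOX (SD, n = 3) and 34.1 ± 5.01 without (SD, n = 2), 0.18-fold, again with no overlap. CYP1A1 was thus lower in 3 of 3 matched pairs of HT-1376 and 2 of 2 of CAL-29, and in 1 of 3 pairs of RT-112. Two-sided exact permutation tests gave p of 0.5 for RT-112, 0.1 for HT-1376 and 0.2 for CAL-29, where 3 against 3 libraries cannot go below 0.1 and 3 against 2 cannot go below 0.2, so none could have passed.

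Non-overlap was common in HT-1376, where 22.8% of genes were lower in all WWOX libraries than in all others, and less so in CAL-29, where 9.8% were. The estimates of the WWOX difference of CYP1A1 from limma with a separate effect in each line were 0.31 for RT-112 (95% interval from -0.70 to 1.33), -1.10 for HT-1376 (from -2.11 to -0.08) and -2.57 for CAL-29 (from -3.73 to -1.42). In CAL-29 the adjusted p was 0.0502, just above the threshold, and 6 of 10 other settings brought it under 0.05 (range over all settings 0.0234 to 0.541), the highest coming without the libraries that had the second control virus. The 6 include the fit on all 18 libraries (limma, adjusted p of 0.0246). That fit takes the library labelled CAL-29 KC, with 129 CPM, as a CAL-29 control, which by itself widens the difference. For WWOX in single lines the fit on 17 libraries called 0%, 8.59% and 0.591% of genes in the same order. The test of whether the WWOX difference itself differed between lines called 393 genes (3.02%), and CYP1A1 was not among them (F of 8.19, adjusted p of 0.0818), although it was called after TMM scaling and by edgeR (adjusted p of 0.0405 and 0.0492). With the library labelled CAL-29 KC included, the interaction test called 0 genes.

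AHRR was well above its detection limit only in CAL-29, where it was at 0.92 ± 0.37 CPM with WWOX (SD, n = 3) and 3.15 ± 0.56 without (SD, n = 2), 0.294-fold and with no overlap. Fitted without the filter on low values, its difference was -1.41 (95% interval from -1.98 to -0.85, limma, adjusted p of 0.0194) in CAL-29. This fit called 146 of 16575 genes for WWOX in CAL-29, and 3.99% of genes for the interaction with the line. Its estimate of spread is shared by the lines, so floor values of RT-112 and HT-1376 also set the CAL-29 interval. Over all libraries of a line, the SD of AHRR in log2(CPM + 0.5) was 0.16 and 0.25 there and 0.82 in CAL-29. The exact permutation test in CAL-29 gave p of 0.2, the lowest that 3 against 2 libraries can give. In RT-112 and HT-1376 AHRR was at its detection limit, so a decrease there could not have been seen at this depth, and its interaction is not read as a difference between lines. In CAL-29 AHR itself differed by 0.06 (95% interval from -1.28 to 1.39) and TIPARP by -0.03 (from -0.99 to 0.93).

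In HT-1376 the WWOX libraries also had less ARNT, with 13.0 ± 2.76 CPM against 21.7 ± 3.88 (SD, n = 3 each) and no overlap, an estimate of -0.72 (95% interval from -1.30 to -0.15) that was not called (limma, adjusted p of 0.109). CYP1B1 was at 15.9 ± 3.27 CPM with WWOX and 7.32 ± 6.33 without (SD, n = 3 each), with an estimate of 1.39 (from 0.11 to 2.68, adjusted p of 0.156). It was higher in 3 of 3 pairs, while its relative CYP1A1 was lower in 3 of 3, but KC (14.4 CPM) lay within the WWOX range. TIPARP was lower in 3 of 3 pairs of HT-1376, with overlapping values and an estimate of -0.63 (from -1.47 to 0.21).

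**Figure D4:**
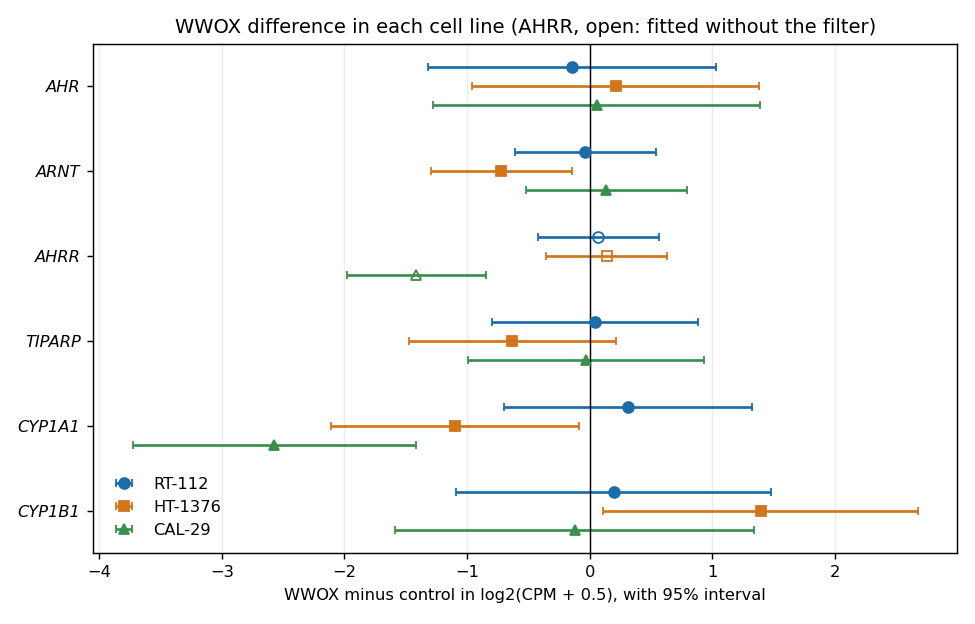
Difference between WWOX and control libraries in log2(CPM + 0.5) with 95% intervals (x axis) for each gene (y axis) and cell line (colour and marker), from limma with a separate effect in each line over 17 libraries, and for AHRR (open markers) from the same fit without the filter on low values. Only the CAL-29 intervals of CYP1A1 and AHRR and the HT-1376 intervals of CYP1A1, ARNT and CYP1B1 leave out 0.

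Within CAL-29 the receptor moved with 2 of its targets over the variants. AHR, TIPARP and CYP1B1 were all highest in KK and WA, in the middle in WK and lowest in KA and WC. For AHR the upper pair was at 251 and 259 CPM and the lower pair at 63.5 and 59.6, for TIPARP at 67.8 and 64.9 against 24.7 and 26.9, and for CYP1B1 at 22.9 and 35.3 against 11.7 and 6.97. CYP1A1 did not share this order, since KA had 30.6 CPM and WA 10.2. The upper and the lower pair both held libraries with and without WWOX, and AP-2α was in both (WA and KA), while AP-2γ was only in WC. Whether WWOX and an AP-2 factor in combination set this order was not tested. The order was shared by 22.1% of the 13022 genes, so it was not particular to the AHR genes. The libraries KK and WA of CAL-29 also had lower median correlations with RT-112 libraries (0.709 and 0.743) than WK, KA and WC (0.805, 0.816 and 0.834), and the part of such differences between libraries in the result was not tested.

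After the mean of the line was subtracted, AHR correlated over 17 libraries with TIPARP (Pearson's r of 0.757, Spearman's rho of 0.645) and CYP1B1 (r of 0.712, rho of 0.712), less with ARNT (r of 0.352, rho of 0.221) and least with CYP1A1 (r of 0.284, rho of 0.194). Without the 2 libraries farthest from the median of AHR, r was 0.667, 0.587, 0.109 and -0.01. Within the lines of 6 libraries r was lower than 0 for ARNT in both and for CYP1A1 in HT-1376. In RT-112 and HT-1376 r was 0.159 and 0.475 for TIPARP, 0.252 and 0.74 for CYP1B1, -0.465 and -0.33 for ARNT, and 0.765 and -0.455 for CYP1A1. In CAL-29, with only 5 libraries, r was 0.974 for TIPARP, 0.909 for CYP1B1, 0.892 for ARNT and 0.394 for CYP1A1. So few libraries leave each r of a single line uncertain. These are descriptions over libraries that share a parent line and, as shown, a pattern common to many genes. Of 13021 other genes, TIPARP ranked 858th and CYP1B1 1289th in their likeness to AHR.

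The genes most like AHR by this measure were GRIP1, MACC1 and ATP2B1 (r of 0.968, 0.955 and 0.944). For ARNT they were RPRD2, NOA1 and DEPDC5 (0.975, 0.963 and 0.963), and for TIPARP they were DSG2, PDS5B and PHAX (0.954, 0.945 and 0.945). CYP1A1 was most like SIGIRR, NECAB3 and CRAT (0.936, 0.934 and 0.926), and CYP1B1 most like B3GNT5, SLC27A2 and RNF122 (0.932, 0.912 and 0.902). No gene was shared between these lists, and no AHR gene was on the list of another.

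**Figure D5:**
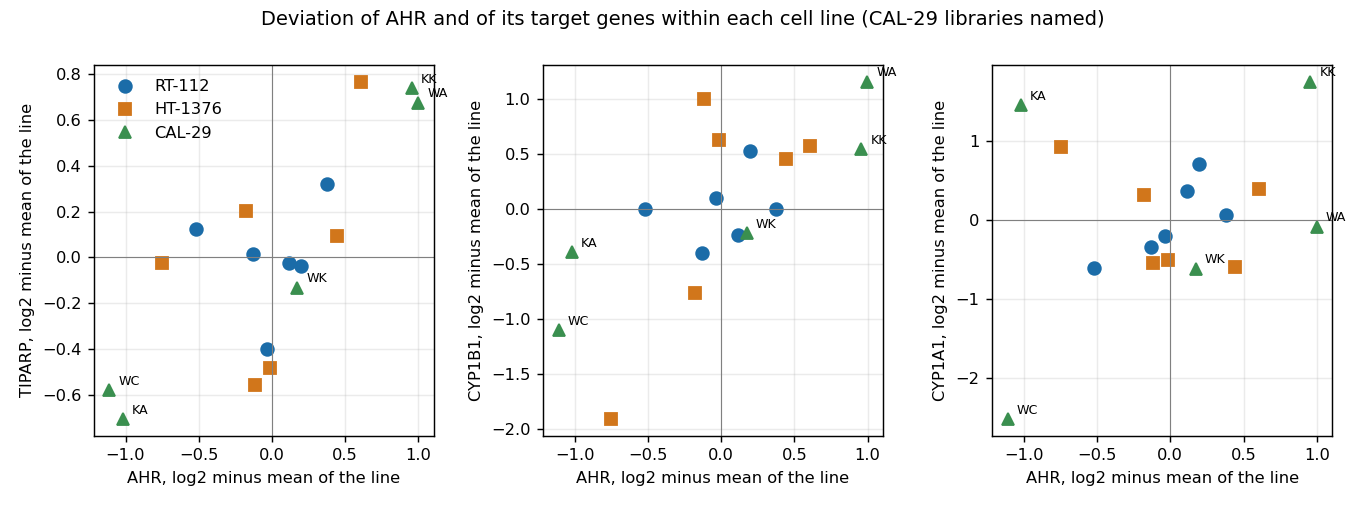
Deviation of TIPARP, CYP1B1 and CYP1A1 (y axes) against that of AHR (x axes), each as log2(CPM + 0.5) minus the mean of its cell line, 1 library per point, with colour and marker for the line and names for the 5 CAL-29 libraries. TIPARP and CYP1B1 rise with AHR (r of 0.757 and 0.712 over 17 libraries), mostly through CAL-29, and CYP1A1 is scattered (r of 0.284).

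The wider pathway was described by 4 lists. The receptor complex (5 genes: HSP90AA1, HSP90AB1, PTGES3, XPO1 and KPNA2, which chaperone AHR or carry it across the nuclear envelope) passed the filter. All 5 were higher in CAL-29 than in RT-112 (71.5% of all genes were called), with a median difference of 1.42 on the log2 scale against 0.84 over all genes, from 1.05 for PTGES3 to 1.79 for HSP90AA1. In HT-1376 3 of 5 were higher than in RT-112, HSP90AB1 by 1.10, KPNA2 by 1.13 and XPO1 by 0.70, a share near the 61.9% of all genes, and 1 of 5 was higher in CAL-29 than in HT-1376, HSP90AA1 by 1.82, where 61% of all genes were called.

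Of the other bHLH-PAS genes and coactivators, 11 of 13 passed the filter. In CAL-29 8 were higher and 1 lower than in RT-112, and 9 were higher than in HT-1376 (against 71.5% and 61% of all genes called), with medians of 1.71 and 1.51 against 0.84 and 0.47 over all genes. The hypoxia factor HIF1A, which competes for ARNT, was higher by 2.38 and 1.74, and the coactivators NCOA1, NCOA2 and NCOA3 were higher by 1.41 to 2.23 than in RT-112. In HT-1376 the clock genes CLOCK and BMAL1 were higher than in RT-112 by 1.73 and 0.85, and SIM2 was lower by 4.50 (value -4.50).

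Of 14 other known AHR targets, 11 passed the filter. Between HT-1376 and RT-112 3 were higher and 2 lower, between CAL-29 and RT-112 7 and 2, and between CAL-29 and HT-1376 6 and 1, beside 61.9%, 71.5% and 61% of all genes called, most of them higher in the first-named line. ALDH3A1, an aldehyde dehydrogenase, and CYP2S1, another dioxin-inducible P450, were highest in RT-112, where CYP1B1 was close to 0. ALDH3A1 had 27.0 to 152 CPM there, at most 0.06 CPM in HT-1376 libraries and 0.84 to 5.92 CPM in those of CAL-29. CYP2S1 had 50.1 to 121 CPM there, against 0.07 to 1.59 CPM for HT-1376 and 19.7 to 50.9 CPM for CAL-29. The EGF family ligand EREG had another pattern, with at most 0.06 CPM in RT-112 libraries, 44.3 to 87.6 CPM in HT-1376 and 0.55 to 32.7 CPM in CAL-29. The quinone reductase NQO1 was higher than in RT-112 in HT-1376 by 1.15 and in CAL-29 by 0.76. No single order of the lines therefore held for the targets of AHR.

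Of the 10 enzymes of the tryptophan-kynurenine route, which forms ligands of AHR, 9 were in the table and 6 passed the filter. Between HT-1376 and RT-112 2 were higher (AADAT and KYAT3) and 2 lower (AFMID and KYAT1), between CAL-29 and RT-112 3 higher and 2 lower, and between CAL-29 and HT-1376 3 higher (AADAT, IL4I1 and KYNU), beside 61.9%, 71.5% and 61% of all genes called. KYNU, the kynureninase, was the 1 gene of all 4 lists called by the F-test of the interaction of WWOX with the line (F of 12.3, limma, adjusted p of 0.0396). This 1 of 33 tested genes is 3.03%, the share found over all genes (3.02%). For CAL-29 against HT-1376 alone, the same fit called 1 of 33 list genes, which was of the receptor complex, and 501 of all 13022 genes. In HT-1376 KYNU was at 0.2, 0.91 and 3.26 CPM in KK, KA and KC and at 11.5, 15.1 and 7.34 CPM in WK, WA and WC. Its estimate there was 2.87 ± 0.46 (SE, limma, adjusted p of 0.0027), where 8.59% of all genes were called.

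For WWOX in single lines, 3 further genes of the lists passed in limma. In HT-1376, with KYNU, this made 3 of 33 tested genes (9.09%), near the 8.59% of all genes, and in CAL-29 1 of 33 (3.03%), with 0.591% of all genes called. In HT-1376 HSP90AB1 and KPNA2 were lower by 1.31 and 1.74 (values -1.31 and -1.74, adjusted p of 0.0185 and 0.0118), and in CAL-29 PTGS2, the inducible cyclooxygenase, was higher by 2.66, at the edge of the threshold (adjusted p of 0.0498). None of the 4 lists had a called gene in RT-112, in any comparison with KK, or for WWOX, AP-2α or AP-2γ over the lines. In bulk RNA, a smaller share of cells with a transcript and less of it per cell cannot be told apart.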

How the data were processed

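CAGE-seq libraries, 1 for each of 6 variants in 3 lines (18 in all), were read as 75 nt single ends. According to the study's methods, the authors mapped the tags to hg38 with BWA and the remainder with HISAT2 2.0.5, clustered them with Paraclu in the RECLU pipeline, rejected irreproducible clusters and deposited 1 CPM value per gene and library with 2 decimals. The annotation, the rule that assigns tags to genes and the total behind the CPM are not given in the sources used here.

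Groups were taken from the sample titles. Gene symbols came from GENCODE 44 (16553 of 16575 identifiers matched, 11685 with the same version). In each library 99.97% to 99.99% of the deposited CPM were whole multiples of the value of 1 read (within 0.0051 CPM), and the reads were recovered in this way, which gave the depths and the count-based alternatives. Floors and intervals from reads cover counting error only. Genes were kept where 1 library or more reached 5 CPM, and log2(CPM + 0.5) was fitted in limma 3.58.1 (R 4.3.3) with trended empirical Bayes and Benjamini-Hochberg adjustment over all 13022 genes, at a threshold of 0.05. A difference is on the log2(CPM + 0.5) scale, which understates that of low genes. The 4 fits were each variant against KK (18 libraries, no term for the line), WWOX and AP-2 terms within lines, the interaction of WWOX with the line, and differences between lines (17 libraries each). The effects of WWOX in single lines came from the interaction fit. The study's own route, voom with TMM factors, was an alternative on recovered reads, as the deposited values are CPM. Other alternatives included edgeR 4.0.16 and DESeq2 1.42.0 on the recovered reads. The fits were tested on simulated data. P-values measure the spread between libraries, of which there is 1 per line and variant, and libraries of 1 line share a parent culture.

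The cell line pairs libraries across variants by design. After the mean of the variant was subtracted, correlations between libraries of the same line had medians of 0.858 (RT-112), 0.752 (HT-1376) and 0.69 (CAL-29, lowest 0.0363, with the library labelled KC). The 6 genes and the 4 pathway lists were chosen with earlier results of these data known. Of the receptor complex list, 1 gene is not reported here, and the counts and the median of that list leave it out. All 6 genes are named, a list gene only where it passed a test, and likeness names the 3 genes of highest Pearson's r. Promoter sequences are from RefSeq (GRCh38.p14). No 2 libraries of a line agreed within sampling noise.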

Additional observations from a re-analysis of the deposited data

Results flagged for a closer look

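For CYP1A1 the interaction of WWOX with the line passed under 2 settings. It had an adjusted p of 0.0405 in limma after TMM scaling and of 0.0492 in edgeR, and of 0.0818 with the deposited CPM. For AHRR, which is fitted only without the filter on low values, the adjusted p of the interaction was 0.0352 in limma, but in RT-112 and HT-1376 11 of 12 libraries had 3 reads or fewer, where a decrease could not show, so this is not evidence that the lines differ. ARNT was lower in all 3 matched WWOX pairs of HT-1376 (23.5 to 11.1 CPM, 24.5 to 16.2 and 17.3 to 11.7) and higher in both pairs of CAL-29 (33.5 to 34.9 CPM and 20.02 to 31.0), but the interaction test did not call it (limma, adjusted p of 0.343). The unpaired CAL-29 WC library had 16.0 CPM, the lowest of its line, and with it the CAL-29 means were 27.3 CPM with WWOX and 26.7 without. Among 18 sets of libraries, each gene in each line, 0 had a highest or lowest library beyond Dixon's 95% limit. The groups of 3 libraries of a variant were too small for that rule.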

How the results depend on the processing

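Of 975 values of the 5 genes past the filter under an alternative, 0 reversed a called direction, 5 lost and 13 gained a call. Another 53 values that were called under neither setting changed sign. AHRR was fitted under 1 setting only, so its results, with the WWOX difference in CAL-29, were not tried under an alternative. The losses were all of ARNT between CAL-29 and HT-1376. The gains were CYP1A1 between CAL-29 and RT-112, its interaction and its WWOX difference in CAL-29, and TIPARP and CYP1B1 between CAL-29 and HT-1376 without 1 variant. Those for the WWOX difference in CAL-29 included the fit on all 18 libraries, with the library labelled CAL-29 KC. For the counts of called genes, 149 of 165 stayed within 1.5 times. Against KK, where limma called 0, DESeq2 called 3 genes for WK, 1 for KA, 5 for KC, 3 for WA and 9 for WC, and edgeR with the line as replicate block called 5 for KC. The block changed no other call in limma or edgeR. For WWOX within lines, a pseudocount of 0.05 CPM gave 2 calls, edgeR 16 (1 for AP-2α and 2 for AP-2γ) and leaving out each line in turn 0 to 6, the 6 without CAL-29. The interaction had 393 calls, 661 without the filter, 0 with all 18 libraries, and 1 to 193 without 1 second virus in turn, the 1 without the second control virus. For WWOX in single lines the main counts of 0 (RT-112), 1118 (HT-1376) and 77 (CAL-29) ranged over all settings from 0 to 3, from 109 to 1440 and from 5 to 776. The causes of these shifts were not tested, other than that fewer libraries entered. Depth limited AHRR, and CYP1B1 in RT-112.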
